A study of Mus musculus with 16 samples.

Results

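Growth hormone and STAT5 signalling was followed through 9 genes in mouse liver: the receptor Ghr, the transducers Stat5a and Stat5b, the outputs Igf1 and Igfals, the feedback inhibitors Socs2 and Cish, and the transcriptional repressors Bcl6 and Cux2. The genes were picked by name, with earlier results of these data known, from the 24411 gene symbols that were counted, and all 9 were among the 12901 genes that passed the filter on low counts. Their values, intervals and calls are therefore given as a description and are not read as tests. Polyadenylated RNA was sequenced from liver tissue in 4 groups of 4 libraries. EtOH+MBV mice received an ethanol diet after the NIAAA model, which joins chronic feeding with a binge, and were treated with matrix-bound nanovesicles (MBV), small vesicles that lie within the extracellular matrix. EtOH mice had the same ethanol diet with vehicle. PF+MBV mice were pair-fed, that is, given a control diet in matched amounts, and treated with MBV, and PF mice were pair-fed with vehicle. For the strain, sex and age of the mice and the dose and source of the vesicles, the labels give nothing. Whether the 4 replicates of a group were separate mice is not stated either, so p-values cover the spread between these libraries only.

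Growth hormone binds its receptor on hepatocytes and activates the kinase JAK2, which phosphorylates STAT5. STAT5 then enters the nucleus and switches on the genes of IGF1 and of its carrier, the acid-labile subunit, and also those of SOCS proteins and CISH, which damp the signal. In rodent liver the timing of growth hormone pulses differs between the sexes, and STAT5 acts there together with BCL6, a repressor more abundant in males, and CUX2, a repressor that is female-specific in adult mice.

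Each library had between 15.3 and 20.5 M counts assigned to genes. The unit of level is CPM, that is, counts per M after TMM scaling of the libraries. A pair of libraries stood apart from their groups in a principal component analysis of all tested genes. On the first component EtOH+MBV 1 was at -0.254, while the remaining EtOH+MBV libraries ranged over 41.2 to 49.6. On the second component EtOH 1 was at -74.2. EtOH 1 also had the highest summed macrophage markers, 687 CPM over 10 genes; the EtOH libraries as a whole covered 236 to 687 CPM, EtOH+MBV 243 to 358, PF+MBV 357 to 434 and PF 337 to 459. Summed hepatocyte markers were 105000 to 165000 CPM in all libraries, and none of the marker genes counted was at 0 in a whole group. In whole tissue, fewer cells of a type and less RNA per cell cannot be told apart. The part that cell composition plays in the values below was not tested.

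STAT dimers bind the palindrome TTCNNNGAA, which reads the same on both strands. The 300-base promoter windows of RefSeq (250 bases before and 50 after each annotated start, GRCm38.p6) were searched for these letters. The motif was present in 2726 of 32851 windows, or 8.3%. Windows of Cish, Bcl6 and Igfals held it, and those of Ghr, Stat5a, Stat5b, Igf1 and Cux2, as well as the third Igfals window, did not contain these letters. Socs2 was not searched. The stretches around the matches are shown because they are the members' copies of the letters that STAT5 binds, in a feedback target (Cish), a repressor (Bcl6) and a circulating output (Igfals); capitals mark the motif letters.
Cish, chr9:107296654-107296683 (+): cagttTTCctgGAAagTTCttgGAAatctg
Bcl6 second promoter, chr16:23981343-23981471 (-): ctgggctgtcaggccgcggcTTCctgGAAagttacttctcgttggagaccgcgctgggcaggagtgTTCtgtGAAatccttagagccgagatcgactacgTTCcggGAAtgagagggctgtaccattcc
Bcl6 first promoter, chr16:23988942-23988990 (-): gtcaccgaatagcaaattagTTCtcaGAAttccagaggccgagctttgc
Igfals second promoter, chr17:24878153-24878201 (+): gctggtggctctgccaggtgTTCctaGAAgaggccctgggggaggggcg
Igfals first promoter, chr17:24877594-24877636 (+): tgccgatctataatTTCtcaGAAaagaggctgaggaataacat
The pair of Cish motifs begins at the annotated start and 11 bases after it, inside an annotated exon. The second Bcl6 promoter held 3 copies, beginning 168, 122 and 88 bases before its start, and the first held 1 copy that begins 118 bases before. The Igfals copies begin 58 and 236 bases before their starts. A match is a run of letters, not a site at which binding was measured here.

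Ghr, the growth hormone receptor (GRCm38 chr15:3317760-3583492, minus strand), was the abundant transcript that followed the diet. The EtOH libraries held 142.6, 345.1, 287.4 and 244.0 CPM, against 568.3, 633.7, 538.6 and 474.9 CPM in the PF libraries. The groups did not overlap, and the fitted difference was -1.12 ± 0.22 on the log2 scale (SE, n = 4 per group), 2.17-fold lower in EtOH. With the vesicles the diets stood apart in the same way. EtOH+MBV livers held 380.1, 239.4, 232.6 and 226.7 CPM and PF+MBV livers 599.8, 637.7, 648.4 and 640.1 CPM, a log2 difference of -1.23 ± 0.22. The EtOH+MBV library nearest to the pair-fed level was EtOH+MBV 1, which stood apart in the component analysis. With MBV treatment the libraries overlapped on both diets, on the pair-fed diet through PF 2 alone. The log2 difference was 0.08 with a 95% interval of -0.39 to 0.55 in EtOH+MBV against EtOH, and 0.19 with an interval of -0.28 to 0.66 in PF+MBV against PF.

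The transducers differed little between the groups. Stat5b (chr11:100780731-100850724, minus strand), the main STAT5 of hepatocytes, averaged 62.55 ± 4.95 CPM in EtOH+MBV, 64.88 ± 17.7 in EtOH, 76.13 ± 13.6 in PF+MBV and 54.77 ± 5.66 in PF (SD, n = 4 each). Its neighbour Stat5a (chr11:100859351-100885169, plus strand) averaged 15.37 ± 2.77, 17.41 ± 6.72, 16.14 ± 2.01 and 17.2 ± 2.46 CPM in the same groups, and its ranges overlapped in every comparison. Per kilobase of exon, Stat5b was the more abundant, with 11.3, 11.7, 13.7 and 9.89 CPM per kb in EtOH+MBV, EtOH, PF+MBV and PF, against 2.15, 2.44, 2.26 and 2.41 for Stat5a. Only in PF+MBV against PF did Stat5b libraries separate: 95.52, 68.68, 64.96 and 75.34 CPM in PF+MBV livers, against 53.10, 62.33, 54.89 and 48.77 CPM in PF livers. That log2 difference was 0.47 ± 0.17, which was not among the calls below. Stat5a shares 72 exon bases, 1.01% of its exons, with Stat3 on the other strand, and these libraries do not keep the strand.

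Igf1 (chr10:87858265-87937042, plus strand), the growth factor that carries much of the growth hormone effect to other tissues, did not follow its receptor. The EtOH+MBV libraries held 533.4, 642.7, 666.3 and 591.9 CPM and the EtOH libraries 199.6, 429.2, 643.0 and 610.2. The PF+MBV libraries held 400.0, 469.0, 466.2 and 397.2 CPM and the PF libraries 678.1, 635.5, 620.6 and 593.8. Every PF+MBV library was thus below every PF library, with a log2 difference of -0.55 ± 0.24. Each was also below every EtOH+MBV library, with a difference of 0.49 ± 0.24 for EtOH+MBV over PF+MBV. Neither difference was among the calls below. EtOH overlapped PF, at -0.43 ± 0.24, and without EtOH 1 that difference was -0.17. The change with MBV on the ethanol diet minus that on the pair-fed diet was 0.92 ± 0.34, which was not among the calls below.

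Igfals (chr17:24865997-24882010, plus strand), which encodes the acid-labile subunit that holds IGF1 in the circulating complex, was lower in EtOH. The EtOH libraries held 20.13, 60.96, 49.54 and 35.53 CPM, against 97.90, 122.7, 91.18 and 89.96 CPM in the PF libraries. These did not overlap, and the log2 difference was -1.28 ± 0.34, 2.42-fold lower in EtOH. PF+MBV livers, at 58.84, 67.81, 65.69 and 63.48 CPM, were also all below the PF livers, by -0.65 ± 0.33 on the log2 scale. EtOH+MBV livers held 90.37, 38.37, 29.17 and 27.33 CPM. The first of these is EtOH+MBV 1, and without it EtOH+MBV lay -1.02 from PF+MBV on the log2 scale, where it lay -0.46 ± 0.34 with it.

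**Figure D1:**
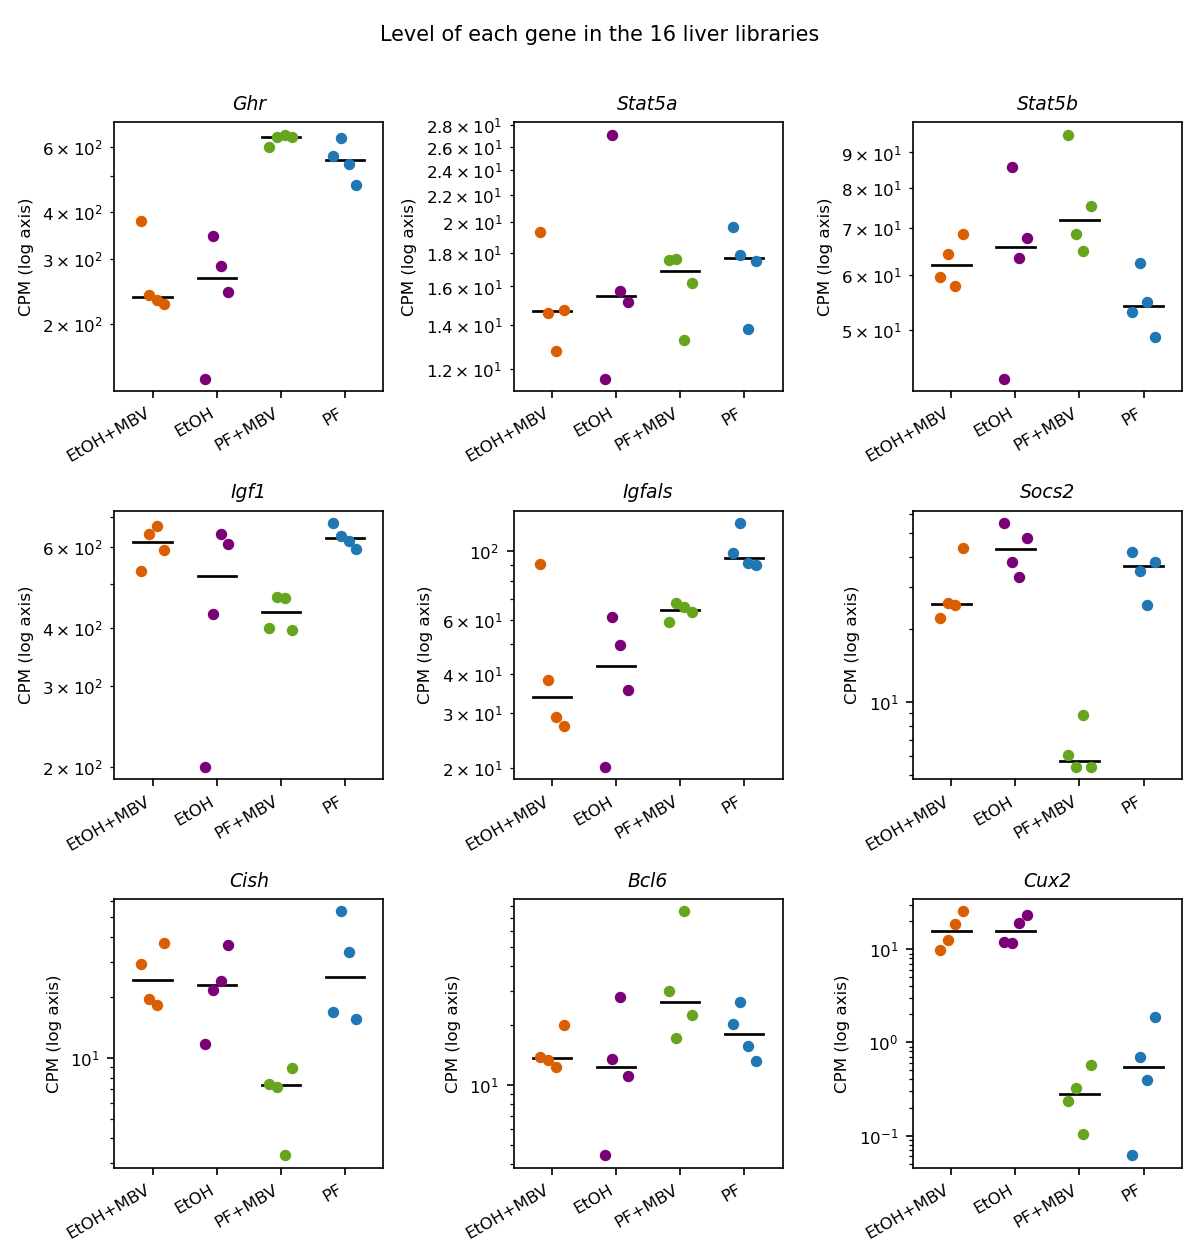
CPM of each of the 9 genes on a log axis in the 16 libraries, with groups in the order EtOH+MBV, EtOH, PF+MBV and PF. Points are libraries and bars are group medians (n = 4). Ghr, Igfals and Cux2 separate EtOH from PF, and Socs2 and Cish are lowest in PF+MBV, where Socs2 lies between 5.386 and 8.849 CPM.

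Socs2 and Cish, the feedback inhibitors, were the members that stood out in the pair-fed livers given MBV. Socs2 (chr10:95385362-95417180, minus strand), which encodes a suppressor that limits growth hormone action, held 6.054, 5.408, 8.849 and 5.386 CPM in PF+MBV livers, against 41.98, 34.89, 25.23 and 38.15 CPM in PF livers. The groups lay far apart, with a log2 difference of -2.44 ± 0.24, or 5.44-fold lower in PF+MBV. Among all tested genes, 0.14% had a larger absolute difference in that comparison. The ethanol livers did not show this level: EtOH+MBV libraries held 22.37, 25.65, 25.28 and 43.60 CPM and EtOH libraries 55.23, 38.10, 32.89 and 47.85 CPM. The difference between EtOH+MBV and EtOH was -0.58 ± 0.22 with overlapping libraries. EtOH+MBV lay 4.54-fold above PF+MBV, a log2 difference of 2.18 ± 0.24, and the change with MBV on the ethanol diet minus that on the pair-fed diet was 1.87 ± 0.33.

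Cish (chr9:107296026-107302784, plus strand), which encodes a SOCS-family protein induced by STAT5, lay at 7.465, 7.138, 3.279 and 8.880 CPM in PF+MBV livers. PF livers held 16.99, 53.62, 33.65 and 15.72 CPM, so the groups did not overlap, although PF libraries spread 3.41-fold among themselves. The log2 difference was -2.17 ± 0.42, or 4.49-fold lower in PF+MBV. EtOH+MBV livers held 29.28, 19.62, 18.34 and 37.19 CPM and EtOH livers 11.76, 21.76, 24.23 and 36.31 CPM, which overlapped. The change with MBV on the ethanol diet minus that on the pair-fed diet was 2.32 ± 0.58. Cish shares 261 and 479 exon bases with a pseudogene and an antisense gene of the annotation, so without strand some of its counts may belong to them. The call in PF+MBV against PF was lost without PF 3, PF+MBV 1, PF+MBV 2 or PF+MBV 3, where the log2 difference was -2.11, -2.22, -2.20 or -1.94. The call on the difference between diets was lost without PF 3, EtOH 2, EtOH+MBV 3, EtOH+MBV 4 or any PF+MBV library, at log2 values of 2.10 to 2.49.

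The repressors went separate ways. Bcl6 (chr16:23965052-23988852, minus strand) held 13.82, 13.39, 12.29 and 19.98 CPM in EtOH+MBV livers and 29.74, 17.36, 75.43 and 22.69 CPM in PF+MBV livers. These overlapped, since PF+MBV 2 lay below the highest EtOH+MBV library. The log2 difference of -1.29 ± 0.47 rested on PF+MBV 3: without it the value was -0.63. EtOH livers held 4.404, 13.55, 27.86 and 11.09 CPM and PF livers 20.35, 26.37, 15.70 and 13.23 CPM, again overlapping. The difference of PF+MBV over PF was 0.94 ± 0.46, and 0.30 without PF+MBV 3. The -1.29 call was also lost without PF 1, PF 3, PF+MBV 1 or any EtOH+MBV library.

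Cux2 (chr5:121856366-122050102, minus strand) was nearly silent in the pair-fed livers and clearly counted in the ethanol livers. EtOH libraries held 11.86, 11.58, 19.26 and 23.60 CPM, against 0.06111, 0.6891, 0.3988 and 1.864 CPM in PF libraries. In counts these were 199 to 366 in EtOH and 1 to 30 in PF. The log2 difference was 4.47 ± 0.52, or 22.2-fold higher in EtOH. EtOH+MBV livers held 9.871, 12.46, 18.91 and 25.63 CPM, against 0.2351, 0.3245, 0.1041 and 0.5729 CPM in PF+MBV livers, a log2 difference of 5.74 ± 0.58. The gene passed the filter through the ethanol groups alone, so its separation is in part fixed by the filter. PF 4 held most of the PF counts, and without it the EtOH over PF difference was 5.40. MBV gave a log2 difference of 0.01 ± 0.40 on the ethanol diet, and its interval was -0.85 to 0.88.

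**Figure D2:**
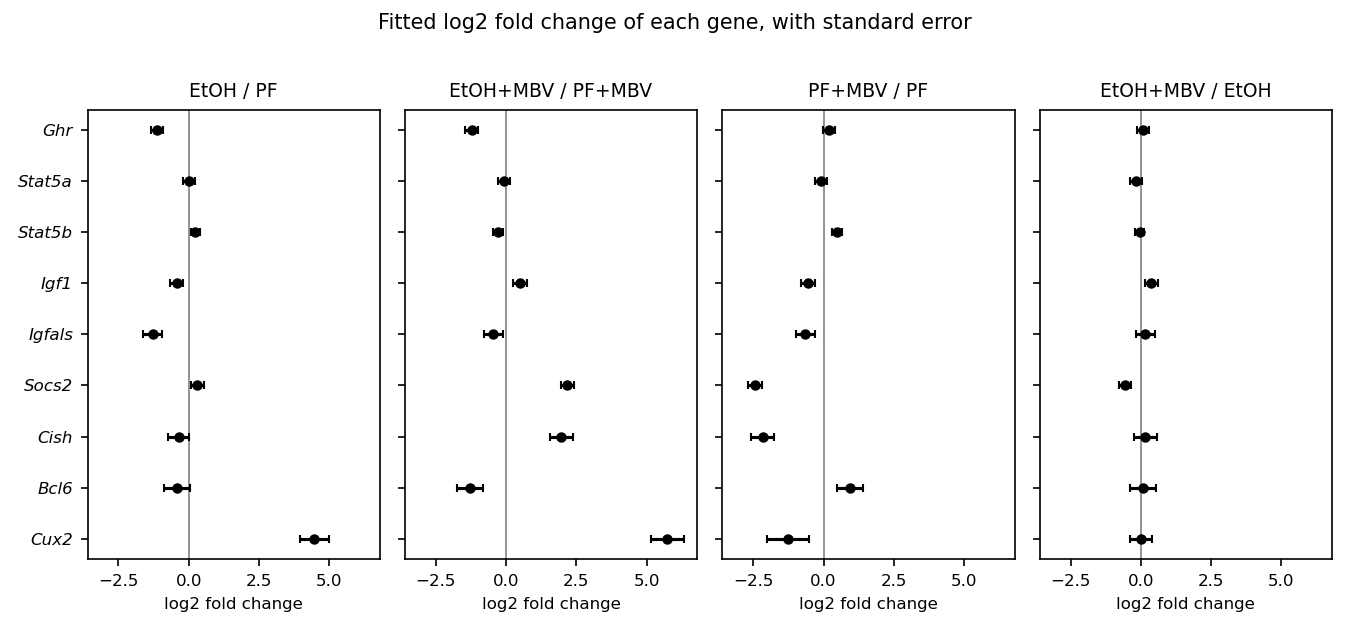
Fitted log2 fold change of each of the 9 genes in EtOH over PF, EtOH+MBV over PF+MBV, PF+MBV over PF and EtOH+MBV over EtOH. Points are estimates and bars are standard errors from the fit of all 16 libraries (n = 4 per group). In EtOH+MBV over EtOH the 9 values lie between -0.58 and 0.37, while Socs2 is at -2.44 and Cish at -2.17 in PF+MBV over PF.

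Counted with edgeR's quasi-likelihood test and Benjamini-Hochberg adjustment over all tested genes, the 9 genes passed as follows, and nothing is read from these counts because the genes were chosen with earlier results known. In EtOH against PF 3 were called (Ghr, Igfals, Cux2), where 39.8% of all tested genes were. In EtOH+MBV against PF+MBV 5 were called (Ghr, Socs2, Cish, Bcl6, Cux2), where 35.9% of all tested genes were. In PF+MBV against PF 2 were called (Socs2, Cish), where 1.78% of all tested genes were, and 4 had an unadjusted p below the limit. In EtOH+MBV against EtOH 0 were called, where 2.69% of all tested genes were. There 1 gene, Socs2, had an unadjusted p below the limit, and DESeq2 and limma voom also called 0 of them. In the difference between the diets in the change with MBV 2 were called (Socs2, Cish), where 4.11% of all tested genes were. The 2 groups did not overlap for 3 genes in EtOH against PF, beside 32.3% of all tested genes, and for 5 in EtOH+MBV against PF+MBV, beside 39.0%. Overlap was also absent for 5 in PF+MBV against PF, beside 15.0%, and for 0 in EtOH+MBV against EtOH, beside 7.60%. Without both EtOH 1 and EtOH+MBV 1, a setting chosen after the data were seen, the members called were 5 in PF+MBV against PF (Stat5b, Igf1 and Igfals in addition) and 4 in the difference between the diets (Stat5b and Igf1 in addition). The other counts were then 4 in EtOH against PF, 7 in EtOH+MBV against PF+MBV and 0 in EtOH+MBV against EtOH. Calls over all genes moved in that setting as well. They were 5419 in EtOH against PF (5137 with all libraries) and 6250 in EtOH+MBV against PF+MBV (4633). In PF+MBV against PF they were 1022 (230), and in the difference between the diets 887 (530). In EtOH+MBV against EtOH they were 180 (347).

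Differences between genes within a library do not depend on library scaling, apart from the prior count. Bcl6 minus Socs2, in log2 CPM, averaged 2.27 ± 0.60 in PF+MBV and -0.91 ± 0.48 in PF (SD, n = 4 each), with ranges of 1.66 to 3.07 and -1.52 to -0.40. The ethanol groups were at -0.94 ± 0.19 in EtOH+MBV and -1.86 ± 1.40 in EtOH. Bcl6 minus Cish was 2.27 ± 1.51 in PF+MBV and -0.53 ± 0.65 in PF with a range of 1.27 to 4.48 in PF+MBV. The balance of Bcl6 to both feedback genes was thus higher in every PF+MBV library than in any PF library. Socs2 and Cish already separated these groups by themselves and Bcl6 overlapped, so this adds no separate result on Bcl6. Igf1 minus Ghr was 1.20 ± 0.48 in EtOH+MBV, 0.82 ± 0.50 in EtOH, -0.55 ± 0.11 in PF+MBV and 0.20 ± 0.14 in PF. The balance of Igf1 to Ghr was thus lowest in PF+MBV, where it ranged over -0.69 to -0.44, beside 0.00 to 0.32 in PF.

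**Figure D3:**
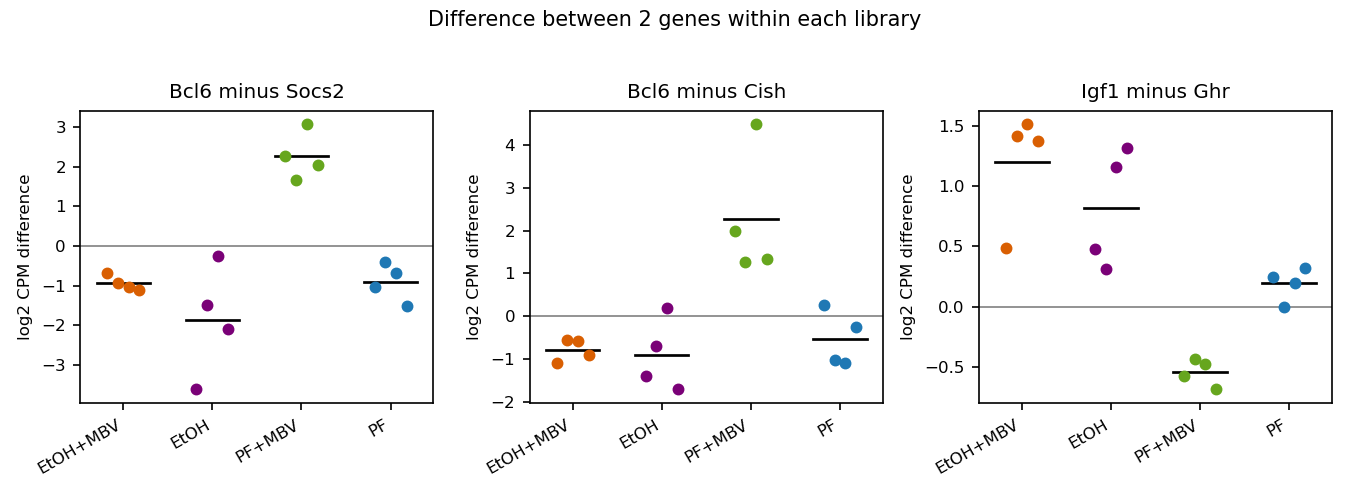
Difference in log2 CPM between 2 genes within each library, for Bcl6 minus Socs2, Bcl6 minus Cish and Igf1 minus Ghr, with groups in the order EtOH+MBV, EtOH, PF+MBV and PF. Points are libraries and bars are group means (n = 4). PF+MBV is the highest group in the Bcl6 panels, averaging 2.27 in both, and the lowest for Igf1 minus Ghr.

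On the scale of CPM per kilobase of exon, Ghr and Igf1 led the group. Ghr was at 29.8, 28.1, 69.8 and 61.2 in EtOH+MBV, EtOH, PF+MBV and PF, and Igf1 at 61.4, 47.5, 43.7 and 63.8. Igfals, at 14.6, 13.1, 20.2 and 31.7, came next. Socs2, Cish and Bcl6 lay between 0.674 and 5.42 in every group. Cux2 was at 1.66, 1.64, 0.0307 and 0.0747, so its ethanol level was below that of Stat5a.

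The genes whose profile over the 16 libraries came nearest to a member were found by the mean absolute difference in log2 CPM relative to the PF mean, among 11736 candidates. For Ghr these were Dhdh and Abcb10, each at 0.129, and Slco1b2 at 0.136. For Igf1 they were Prpf6 at 0.117 and Zfp780b at 0.123. Slc43a1 was nearest to both feedback genes, at 0.517 from Socs2 and 0.521 from Cish. For Cux2 the closest was Gadd45a, at 0.738, and at 0.892 with a prior count of 0.5. That distance includes the spread of Cux2 in PF libraries, which held 1 to 30 counts, near the floor. Igfals was nearest to Ttc30b, at 0.217, and Bcl6 to Magee1, at 0.389. Among the members themselves, Stat5a and Stat5b were the nearest pair at 0.353 and Ghr and Igfals followed at 0.382. Socs2 and Cish were 0.656 apart.

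The rest of the growth hormone cascade was counted in a list of 18 receptors, kinases, STATs and adaptors. In EtOH against PF 5 rose and 2 fell, with a median log2 difference of 0.06 beside 0.01 over all tested genes. The share called, 38.9%, was close to the 39.8% of all tested genes. Prlr, the receptor of the related hormone prolactin, rose by 0.99 ± 0.21 (adjusted p = 0.00152, edgeR). Stat3, the STAT of interleukin-6 signalling, rose by 0.67 ± 0.17 (adjusted p = 0.00612), and the adaptor Shc1 by 0.56 ± 0.13 (adjusted p = 0.00241). In EtOH+MBV against PF+MBV 3 rose and 2 fell, a share of 27.8%, below the 35.9% of all tested genes called there. Stat3 rose there by 1.37 ± 0.18 (adjusted p = 5.42e-05). Jak2, the kinase bound to the receptor, was the single gene of the list that edgeR called in EtOH+MBV against EtOH. It was at -0.87 ± 0.23 (edgeR adjusted p = 0.0493), where 2.69% of all tested genes were called. The call did not last: it was lost with any 1 library left out, other than EtOH 3 or EtOH 4, and under limma voom (adjusted p = 0.0864). Without EtOH 1 the value was -0.58 (adjusted p = 0.149). In PF+MBV against PF edgeR called 0 of the 18, where 1.78% of all tested genes were called. Of the 18, 2 had an unadjusted p below 0.05, and DESeq2 called 1 and limma voom 0.

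Inhibitors of JAK and STAT signalling gave 5 rises and 3 falls among 16 tested genes in EtOH against PF, where 39.8% of all tested genes were called. Ptpn2, a phosphatase of JAK and STAT proteins, rose by 0.85 ± 0.16 (edgeR adjusted p = 0.000646). Ptpn6, the phosphatase SHP-1, fell by 0.81 ± 0.13 (adjusted p = 0.000176), and Pias3, which binds STAT3, fell by 1.63 ± 0.25 (adjusted p = 0.000143). In EtOH+MBV against PF+MBV 7 rose and 4 fell, a share of 68.8% beside 35.9% of all tested genes. Nr0b2, the nuclear receptor SHP that represses bile acid synthesis, was the single gene that edgeR called in PF+MBV against PF (DESeq2 called 2). Of all tested genes 1.78% were called there by edgeR. Nr0b2 held 43.73, 61.32, 48.57 and 42.63 CPM in PF+MBV livers and 9.594, 12.34, 18.20 and 17.96 CPM in PF livers. All PF+MBV libraries lay above all PF libraries, and the log2 difference was 1.75 ± 0.41 (adjusted p = 0.0384). Leaving out PF 1, PF 3, PF 4 or any PF+MBV library ended that call, with adjusted p-values of 0.0747 to 0.142. Of 10 tested IGF binding proteins and receptors, 2 rose in EtOH against PF, a share below the 39.8% of all tested genes: Igfbp1, a liver protein that binds IGF1 and is high in fasting, by 3.35 ± 0.70 (adjusted p = 0.00142), and Igf2r, the receptor that clears IGF2, by 0.61 ± 0.15 (adjusted p = 0.00417). Igfbp1 held 354.8 CPM in EtOH+MBV 1 and at least 1946 CPM in the other EtOH+MBV libraries.

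**Figure D4:**
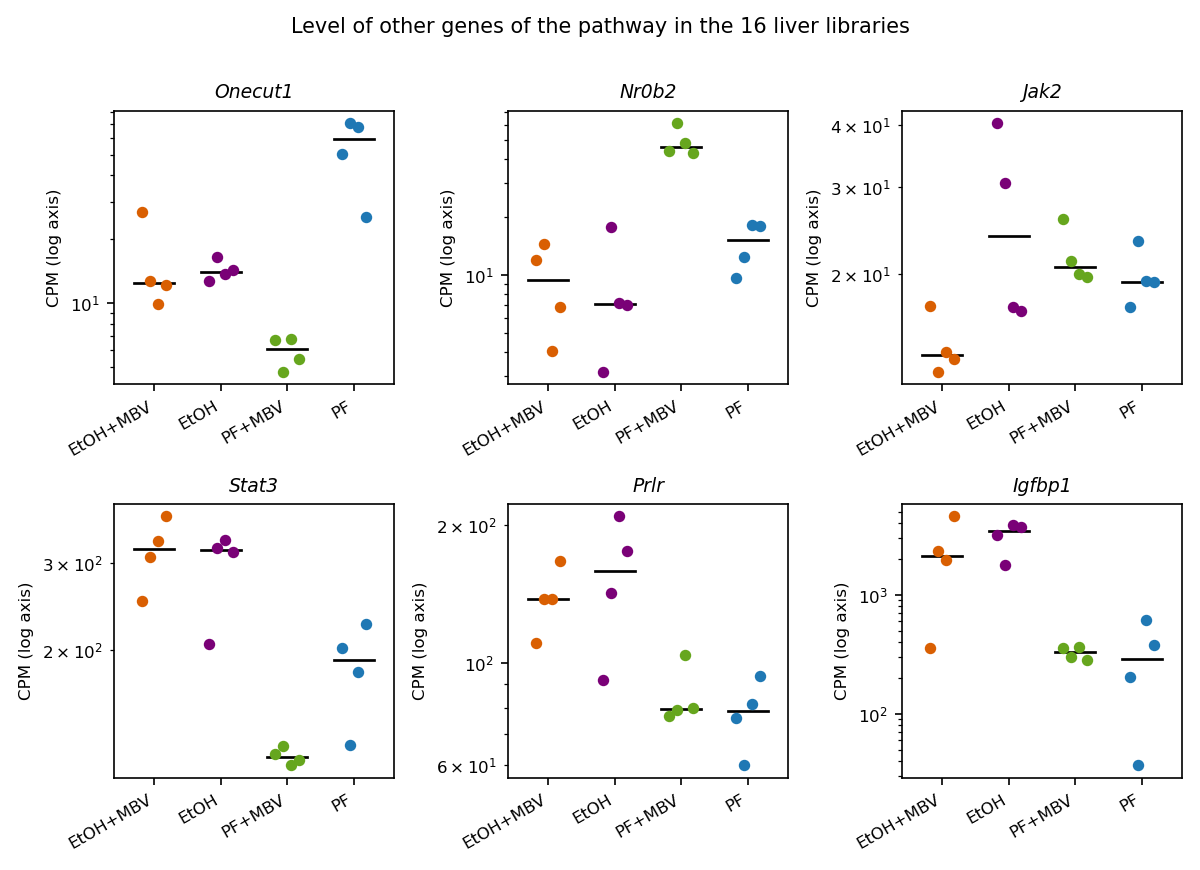
CPM of Onecut1, Nr0b2, Jak2, Stat3, Prlr and Igfbp1 on a log axis in the 16 libraries, with groups in the order EtOH+MBV, EtOH, PF+MBV and PF. Points are libraries and bars are group medians (n = 4). Onecut1 is lowest in PF+MBV, at 4.759 to 6.767 CPM, and Nr0b2 is highest there, at 42.63 to 61.32 CPM.

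Transcription factors that work with STAT5, BCL6 or CUX2 gave 6 rises and 7 falls among 20 in EtOH against PF, beside 39.8% of all tested genes called. Onecut1, the hepatocyte factor HNF6, which is known to be regulated by growth hormone in rodent liver, was lowest in PF+MBV. PF+MBV livers held 6.701, 4.759, 6.767 and 5.443 CPM, against 50.66, 70.66, 67.75 and 25.41 CPM in PF livers. The groups were far apart, with a log2 difference of -3.18 ± 0.33 (edgeR adjusted p = 0.000128), 9.06-fold lower in PF+MBV, and this held with each library left out. EtOH livers held 12.68, 16.46, 13.76 and 14.32 CPM, so Onecut1 was also lower in EtOH than in PF, by -1.91 ± 0.30 (adjusted p = 0.000175). EtOH+MBV livers held 26.82, 12.72, 9.871 and 12.19 CPM, all above PF+MBV (log2 1.38 ± 0.32, adjusted p = 0.00343), and the change with MBV differed between the diets by 3.29 ± 0.44 (adjusted p = 0.00458).

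Other factors of that list changed with ethanol. Cebpa, a factor of mature hepatocytes, fell by 1.52 ± 0.18 in EtOH against PF (edgeR adjusted p = 1.16e-05) and Foxa2, a pioneer factor, fell by 0.95 ± 0.22 (adjusted p = 0.00277). The corepressor Bcor, a partner of BCL6, rose by 1.41 ± 0.17 (adjusted p = 1.69e-05), and Bcl6b, a close relative of Bcl6, by 1.68 ± 0.21 (adjusted p = 2.47e-05). In PF+MBV against PF 2 of the 20 fell, Onecut1 among them, where 1.78% of all tested genes were called. In the difference between the diets 5 were called higher, where 4.11% of all tested genes were called.

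Signals known to blunt growth hormone action in liver, such as endotoxin and cytokine receptors, gave 4 rises and 0 falls among 8 tested genes in EtOH against PF, beside 39.8% of all tested genes called. Cd14, the endotoxin co-receptor, rose by 3.50 ± 0.40 (edgeR adjusted p = 9.7e-06), Il1r1, an interleukin-1 receptor, by 2.31 ± 0.41 (adjusted p = 0.000402), and Tnfrsf1a, a receptor of tumour necrosis factor, by 0.75 ± 0.15 (adjusted p = 0.00114). The list also held cytokines, named here after their values were seen. Il1b averaged 1.33 ± 0.465 CPM in EtOH and 2.241 ± 0.724 in PF (SD, n = 4 each). Tnf and Il6 were near the floor, at most 6 and 2 counts in PF libraries and 0 and 1 in EtOH libraries. Cd14 was the single gene of this list called in EtOH+MBV against EtOH, where 2.69% of all tested genes were called. Cd14 was at -1.85 ± 0.36 there (edgeR adjusted p = 0.0208). It held 6.471, 19.96, 12.55 and 17.21 CPM in EtOH+MBV livers and 85.43, 43.10, 46.92 and 26.57 CPM in EtOH livers, without overlap. The call was lost without EtOH+MBV 3 (adjusted p = 0.0873), and without both EtOH 1 and EtOH+MBV 1 the value was -1.23 (adjusted p = 0.0439). It was also lost with only these 2 groups fitted (-1.86, edgeR adjusted p = 0.227), where 0 of all genes were called.

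Genes with a known sex bias in mouse liver are known to follow the growth hormone pattern. In EtOH against PF the male-biased ones were called mostly lower, and the female-biased ones higher or not called. Of 20 male-biased genes 19 were tested, and 17 fell and 1 rose in EtOH against PF, where 39.8% of all tested genes were called, 2627 higher and 2510 lower. For 2 of these 19 no EtOH library held over 7 counts, so they passed the filter through other groups and their fall is in part set by it. C6, a complement component, fell by 3.14 ± 0.26 (edgeR adjusted p = 8.56e-07). Of 20 female-biased genes 12 were tested, and 6 rose and 0 fell. For 2 of the 6 no PF library held over 6 counts, so their rise is likewise in part set by the filter. Sult1e1, the oestrogen sulfotransferase, rose by 3.71 ± 0.66 (adjusted p = 0.000447), with 6.981 to 35.6 CPM in EtOH and 1.196 to 1.711 CPM in PF. In EtOH+MBV against PF+MBV 11 of the 19 male-biased genes fell and 2 rose. Of the 12 female-biased genes 5 rose and 1 fell there, where 35.9% of all tested genes were called. The male-biased count depended on EtOH+MBV 1, which stood apart in the component analysis. Without it Selenbp2, Cyp4a12a and Mup3, named after their values were seen, were called lower as well. Their log2 differences were then -2.06, -2.42 and -1.59 (edgeR adjusted p = 0.00488, 0.0113 and 0.0424), and no male-biased gene lost its call. In PF+MBV against PF edgeR called 0 of the 19 and 0 of the 12, where only 1.78% of all tested genes were called. Of these lists 6 and 4 had an unadjusted p below 0.05, and DESeq2 called 1 and 2. In EtOH+MBV against EtOH edgeR called 0 male-biased genes and 1 female-biased gene, which fell, where 2.69% of all tested genes were called. Of the male-biased genes 8 had an unadjusted p below 0.05 and DESeq2 called 2. Markers of several cell types moved with the diet as well, none of them at 0 in a whole group. Of 7 tested sinusoidal endothelial markers 6 fell in EtOH against PF, and their summed level was 226 to 289 CPM in EtOH and 392 to 463 CPM in PF. Of 9 stellate cell markers 6 rose and 1 fell, with sums of 247 to 436 CPM in EtOH and 244 to 259 CPM in PF. Of 3 tested B and T cell markers 1 fell, and the sums did not overlap, at 0.838 to 2.85 CPM in EtOH and 3.35 to 5.76 CPM in PF. Of 7 tested monocyte markers 1 rose and 2 fell, of 10 macrophage markers 1 rose, of 5 cholangiocyte markers 1 rose, and of 9 hepatocyte markers 2 rose and 0 fell. The macrophage count depended on EtOH 1. Without it Clec4f, Vsig4, Cd5l, Adgre1 and Csf1r were called lower, at log2 differences of -0.55, -0.89, -0.72, -0.98 and -0.97 (edgeR adjusted p of 0.00038 to 0.0126). Marco was still called higher, by 1.52 (adjusted p = 0.0239). The part these markers play in the values of the growth hormone genes was not tested.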

How the data were processed

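Raw read counts per gene were deposited by the authors for each of 16 libraries, and the unstranded counts were used unchanged. The submitters' processing notes name Trimmomatic, STAR and the build mm10; versions and annotation were not given in the sources used here. Low genes were removed with filterByExpr (minimum count 10), leaving 12901, and TMM factors were 0.863 to 1.27. Group means were estimated in a single edgeR 4.0.16 quasi-likelihood fit of the 16 libraries (R 4.3.3), with Benjamini-Hochberg adjustment across the genes tested and a limit of 0.05. For log2 CPM the prior count was 2. Alternatives used DESeq2 1.42.0 and limma 3.58.1. The fit was tested on simulated data.

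The members, lists and naming rule were chosen with earlier results of these data known. The rule names all 9 members, up to 4 genes per list with the smallest p in EtOH against PF and up to 2 in each other contrast, and the 3 genes most like a member; some genes it names are not reported here. Coordinates are GRCm38; promoter windows are RefSeq's. Depth was 15.3 to 20.5 M counts in genes per library, and each fold change carries a standard error.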

Additional observations from a re-analysis of the deposited data

Results flagged for a closer look

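Some libraries lay far from the other 3 of their group. Chance alone marks about 1 in 20 groups by this measure, and 124 groups of 4 libraries were checked. EtOH+MBV 1 was apart for Ghr (380.1 CPM), Onecut1 (26.82 CPM), Foxa2 (35.75 CPM) and C6 (108.0 CPM), each the highest of its group. EtOH 1 was the lowest of its group for Stat3 (205.5 CPM) and Cebpa (93.95 CPM). The others were Socs2 in EtOH+MBV 4 (43.6 CPM), Prlr in PF+MBV 3 (104.3 CPM) and Bcl6b in PF+MBV 4 (3.781 CPM), each the highest of its group.

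For 4 genes named outside the 9, the change with MBV was called different between the diets by edgeR's test of the difference itself. In log2 units the difference (ethanol diet minus pair-fed) was 3.29 for Onecut1, 1.19 for Foxa2, 0.93 for Cebpa and 1.31 for C6. The Onecut1 difference passed with each library left out, and those of Foxa2, Cebpa and C6 did not. The same difference was 1.87 for Socs2 and 2.32 for Cish. All of these values are a description, since the members, the lists and the naming rule were chosen with earlier results known.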

How the results depend on the processing

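Of 1070 recomputed fold changes of the 9 genes, 1059 moved by less than 1 SD. None of the called ones changed sign, while 30 values of uncalled ones did, and of 1666 recomputed list counts 1438 stayed within 1.5 times. Scaling by total count only gave 196 genes called in EtOH+MBV against EtOH (347 in the report) and 349 in the difference between diets (530). DESeq2 gave 905, 665 (PF+MBV against PF, 230 in the report) and 1113. With only the 2 groups of a contrast fitted, EtOH+MBV against EtOH gave 0 genes (1679 at an unadjusted p under 0.05, where DESeq2 gave 905 and limma voom 247 over all groups), and PF+MBV against PF gave 1119 genes and 5 members, adding Stat5b, Igf1 and Igfals. That setting has no value for the difference between diets, nor for Cux2 in PF+MBV against PF, where its counts were below the filter. Replicate numbers did not pair the libraries (deviations of same-numbered libraries correlated at -0.124 to 0.17); with a replicate block, EtOH+MBV against EtOH gave 205 genes and Bcl6 lost its call in EtOH+MBV against PF+MBV (-1.09). Without EtOH 1 and EtOH+MBV 1, chosen after seeing the data, the counts were 180, 1022 and 887 genes in EtOH+MBV against EtOH, PF+MBV against PF and the difference between diets, with 5 members called in the second and 4 in the third. Leaving out single libraries gave 4268 to 5435 genes and 3 to 4 members in EtOH against PF, 8 to 1169 and 0 in EtOH+MBV against EtOH, 45 to 689 and 1 to 4 in PF+MBV against PF, 3412 to 5512 and 4 to 6 in EtOH+MBV against PF+MBV, and 168 to 1088 and 1 to 4 in the difference between diets. The cause of these changes was not tested. Depth limits Cux2 most, with 1 to 30 counts in PF libraries.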
